A study of Mus musculus with 19 samples.

Results

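RNA sequencing libraries of conventional type 1 dendritic cells (cDC1) from mouse spleen that are labelled Xbp1-Ire1 KO were compared with cDC1 libraries labelled WT. Libraries were put in these groups by their labels, 3 in each, which makes 6 of the 19 libraries of the series. The labels give the strain as C57BL6, the organ as spleen, the genotype, and 5000 to 50000 sorted cells per library. In their descriptions WT replicates 1 and 2 are named after floxed Xbp1 and Ire1 alleles, and WT replicate 3 is named WT. No source used here gives the promoter or Cre line that deleted the genes, the exons removed, the age of the mice or any pooling of mice. A further 3 cDC1 libraries labelled Xbp1 KO, 4 cDC2 libraries labelled WT and 3 cDC2 libraries labelled Xbp1-Ire1 KO were used to test where the cDC1 effect differed from theirs. The Xbp1 KO libraries also entered the shared fits, in which they help to estimate the spread. Nothing in the labels says that replicates came from separate mice, so p-values measure the spread between these libraries, which may be technical.

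IRE1, encoded by Ern1, is a sensor in the membrane of the endoplasmic reticulum (ER). When unfolded proteins build up, its RNase removes a short intron from Xbp1 mRNA, and the spliced mRNA encodes a transcription factor for ER folding and secretion genes. The RNase can also cleave other mRNAs, a process called regulated IRE1-dependent decay. PERK, encoded by Eif2ak3, and related kinases phosphorylate the translation factor eIF2alpha instead, which slows translation and raises ATF4, the transcription factor of the integrated stress response (ISR). Splenic cDC1 take up dying cells and present antigen to CD8 T cells, and a fraction of them matures in the steady state, with a programme that includes the lymph node homing receptor CCR7.

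The intron that IRE1 removes is cut within paired CNGCAG stem-loop motifs, so it takes in part of each motif. In a coding transcript of Xbp1 in GENCODE M21 these motifs and the bases between them span bases 812 to 843, shown here because this splice is the reaction that loss of IRE1 removes. Capitals mark the motif pair, whose starts lie 26 bases apart, so the lower-case bases are not the whole intron. Bases 455 to 486 of the same transcript hold another CNGCAG pair at this spacing, not shown.
Xbp1 mRNA, IRE1 splice region: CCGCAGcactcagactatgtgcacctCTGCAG
The deposited values are sums per gene, so spliced and unspliced Xbp1 cannot be told apart in them.

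Gene-level counts of both targeted genes were higher, not lower, in the libraries labelled Xbp1-Ire1 KO. Ern1 (ENSMUSG00000020715, GRCm38 chromosome 11, 106394650 to 106487852) stood at 22.4, 28.96 and 23.3 CPM in WT and 71.3, 60.6 and 50.5 CPM in Xbp1-Ire1 KO, where CPM is counts per 1e6 counts, scaled by TMM, a trimmed mean of ratios between libraries. The groups did not overlap, as in 26.4% of all tested genes. Ern1 rose (log2 fold change 1.29 ± 0.17 SE, adjusted p = 0.000467, edgeR quasi-likelihood test with Benjamini-Hochberg adjustment). The values of Xbp1 (ENSMUSG00000020484, GRCm38 chromosome 11, 5520659 to 5525893) were 233, 145 and 143 CPM in WT and 353, 337 and 301 CPM in Xbp1-Ire1 KO, and it also rose (log2 fold change 0.93 ± 0.18 SE, adjusted p = 0.00628). A sum over a gene cannot show the loss of single exons, so these counts check neither deletion. In the libraries labelled Xbp1 KO, Xbp1 lay at 95.1, 89.7 and 113 CPM, below every other cDC1 library here. WT, Xbp1 KO and Xbp1-Ire1 KO therefore name libraries by their labels throughout, and every direction given rests on those labels.

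The sort markers followed the labels. Xcr1, the chemokine receptor that defines cDC1, lay at 813 to 1010 CPM without scaling in the 6 libraries and at 5.66 to 19.5 CPM in cDC2, while Clec4a4, a lectin of cDC2, lay at 0 to 0.364 CPM in the 6 and at 116 to 163 CPM in cDC2. Total counts in units of 1e6 were 12.8 to 13.7 in WT and 11.3 to 16.2 in Xbp1-Ire1 KO. Some libraries stood apart. Xbp1-Ire1 KO replicate 2 held more transcripts of red pulp macrophages (762 summed CPM without scaling, against 199 to 377 in the other 5) and of erythroid cells (46.9 against 3.13 to 16.9). Markers of other cells also differed between the groups. The summed CPM of neutrophil markers was 3.5, 10.8 and 11.2 in WT and 24.2, 67.5 and 25.2 in Xbp1-Ire1 KO. Of 7 tested neutrophil members edgeR and DESeq2 called 0 and 3 were higher at an unadjusted p under 0.05, with a median log2 fold change of 2.76. The summed CPM of NK cell markers was 67.1 to 126 in WT and 181 to 221 in Xbp1-Ire1 KO, and that of monocyte markers 218 to 354 and 401 to 533. WT and Xbp1-Ire1 KO did not overlap in any of these 3 sums. Klrk1 passed in the NK cell list (1 of 1 tested) and Lyz2 in the monocyte list (1 of 7 tested), both higher. Of the 8 NK cell markers only Klrk1 had counts enough to be tested. Klrk1 lay at 6.12 to 6.96 log2 CPM in WT and 7.40 to 7.77 in Xbp1-Ire1 KO, so the NK cell sum is largely that 1 gene. WT replicate 3 had the highest mean level of immediate early genes (8.30 log2 CPM, against 7.27 to 7.88 in the other 5). In counts over genes it also stood apart from WT replicates 1 and 2 (chi-square per degree of freedom 75.8 and 72.6). Between WT replicates 1 and 2 that value was 13.7, and between Xbp1-Ire1 KO libraries 14.9 to 37.9. Pancreatic transcripts, high in 1 library of the Xbp1 KO group, summed to 0.784 to 1.68 CPM in WT and 4.5 to 7.81 CPM in Xbp1-Ire1 KO. The part of these transcripts in the results was not tested.

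Of 11353 genes tested, 880 passed at an adjusted p under 0.05 (7.75%), 345 higher in Xbp1-Ire1 KO (3.04%) and 535 lower (4.71%). WT and Xbp1-Ire1 KO values did not overlap in 26.4% of all tested genes. The largest rises and falls named by rule were drawn only from called genes without such overlap that also passed an abundance floor (3 in log2 CPM). For those genes the lack of overlap is therefore not a result. The median log2 fold change of all tested genes was 0.0082. The shares of 3.04% higher and 4.71% lower apply beside every list count against WT below. A list count near those shares is not a result about that list. With upper quartile scaling 46.5% of the called genes were higher, against 39.2% with TMM. Left-out libraries moved the total: it was 460 without WT replicate 1, 1966 without WT replicate 3, 430 without Xbp1-Ire1 KO replicate 1 and 462 without Xbp1-Ire1 KO replicate 3. In bulk libraries fewer cells of a type and less RNA per cell cannot be told apart, which bears on every lower gene below. The higher genes included most members of the ISR, of amino acid supply and of tRNA charging. Of 25 ER chaperones 10 were higher, 1 was lower and 14 did not pass. Homeostatic maturation had the most lower members of the 32 lists of processes. Where a list below is given as 0 in a direction over all 6 libraries, edgeR gave at most 1 member in that direction at an unadjusted p under 0.05, and DESeq2 called at most 1.

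**Figure D1:**
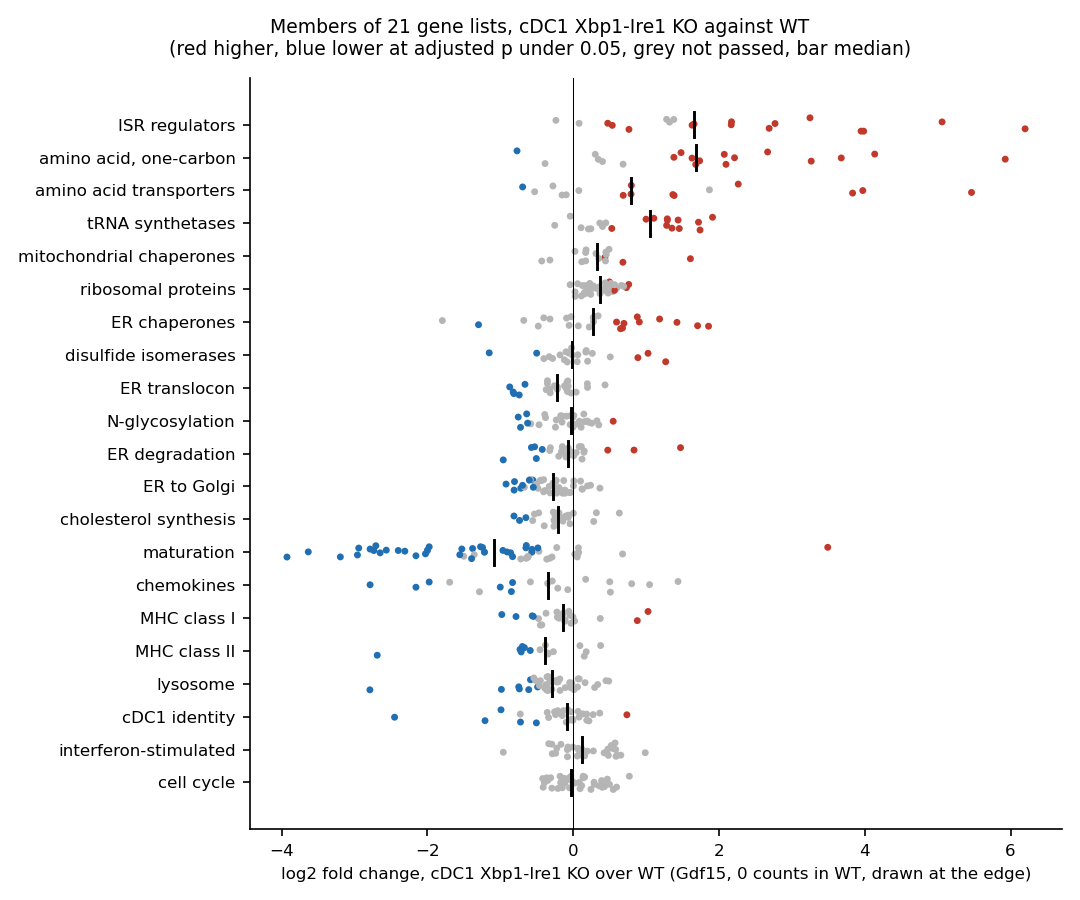
Log2 fold change of each tested gene (Xbp1-Ire1 KO minus WT, cDC1; x axis) by gene list (y axis, 21 lists), red for higher and blue for lower genes at adjusted p under 0.05, grey for the rest, with a bar at each median and values past the axis drawn at its edge. The ISR and amino acid lists sit to the right of 0, with medians of 1.66 and 1.68, and homeostatic maturation sits to the left, with a median of −1.09.

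Most ISR regulators rose. Of 19 tested ISR regulators 14 rose, 0 fell and the median log2 fold change was 1.66, against 0.0082 over all genes. Trib3, a pseudokinase induced by ATF4 and CHOP, lay at 2.57, 3.86 and 2.98 CPM in WT and 128, 102 and 85.5 CPM in Xbp1-Ire1 KO (log2 fold change 5.06 ± 0.34 SE, adjusted p = 1.98e-06). Ddit3, which encodes the stress transcription factor CHOP, lay at 3.32, 2.12 and 5.26 CPM in WT and 71.3, 50.9 and 47.6 CPM in Xbp1-Ire1 KO (log2 fold change 3.99 ± 0.34 SE, adjusted p = 1.2e-05). Both genes were several times higher in every Xbp1-Ire1 KO library than in any WT library. Both belong to the largest rises, which were drawn only from genes whose groups did not overlap. Cebpb, a transcription factor that pairs with ATF4 and CHOP, lay at 16.3, 16.3 and 20.03 CPM in WT and 125, 118 and 116 CPM in Xbp1-Ire1 KO (log2 fold change 2.77 ± 0.15 SE, adjusted p = 4.63e-07), although 20.7% of its exon bases overlap the gene Tmem189. Eif4ebp1, a repressor of cap-dependent translation and an ATF4 target, lay at 35.9, 47.2 and 30.3 CPM in WT and 181, 161 and 169 CPM in Xbp1-Ire1 KO (log2 fold change 2.17 ± 0.17 SE, adjusted p = 5.01e-06). Atf4 itself, the central transcription factor, rose from 28.1, 33.04 and 70.7 CPM in WT to 199, 199.9 and 194 CPM (log2 fold change 2.17 ± 0.27 SE, adjusted p = 0.000294).

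Further ISR genes included effectors and a secreted factor. Chac1, an enzyme that breaks down glutathione, lay at 9.05, 5.44 and 15.8 CPM in WT and 67.3, 65.3 and 62.6 CPM in Xbp1-Ire1 KO (log2 fold change 2.69 ± 0.29 SE, adjusted p = 8.01e-05). Gdf15, a secreted stress cytokine, had 0 counts over the 3 WT libraries and 325 counts over the 3 Xbp1-Ire1 KO libraries. That is at least 99.9-fold higher, taking a floor of 3 counts over the WT group. Atf3, a stress transcription factor that is also an immediate early gene, did not pass (38.3, 30.9 and 159.5 CPM in WT and 166, 213 and 217 CPM in Xbp1-Ire1 KO, log2 fold change 1.38 ± 0.44 SE, adjusted p = 0.0764). Without WT replicate 3, the library with the highest immediate early genes, its value was 2.52, adjusted p = 5.79e-07. Of the sensors upstream, Eif2ak3 fell (32.1, 27.4 and 43.9 CPM in WT and 17.3, 22.4 and 19.1 CPM in Xbp1-Ire1 KO, log2 fold change −0.81 ± 0.20 SE, adjusted p = 0.0278), a call lost without WT replicate 1 (adjusted p = 0.0647), without Xbp1-Ire1 KO replicate 1 (0.126) or without replicate 3 of that group (0.105).

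**Figure D2:**
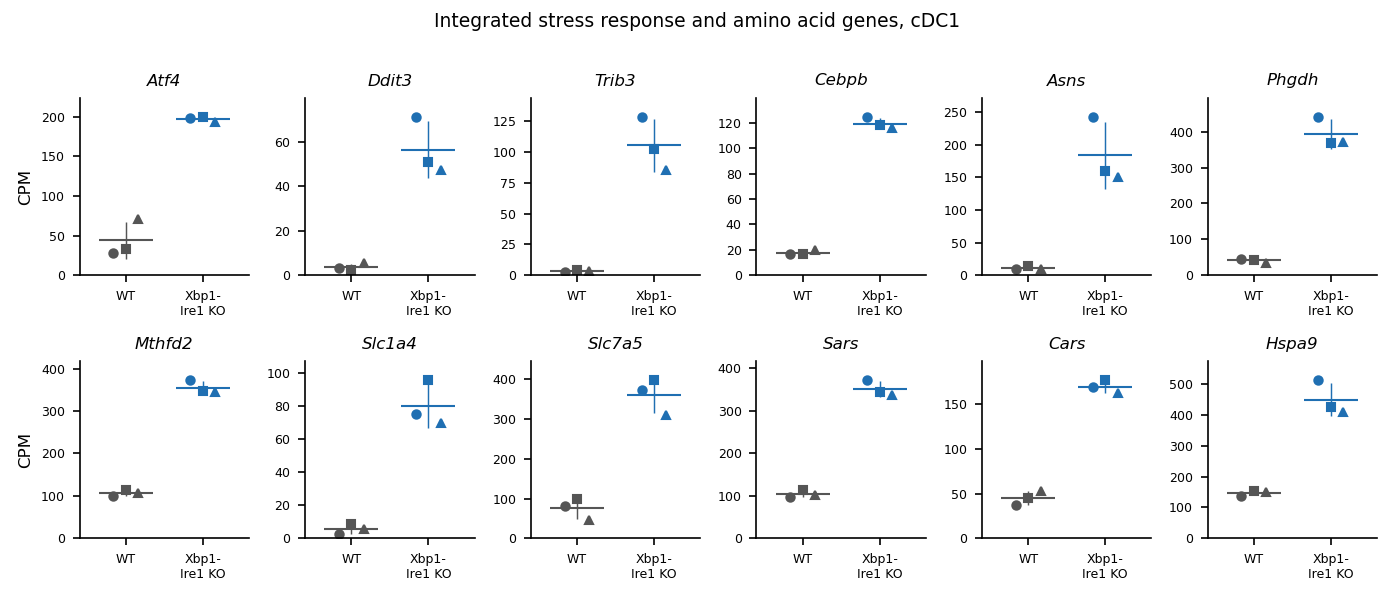
CPM (y axis, from 0) of 12 ISR, amino acid and related genes in the 3 WT and 3 Xbp1-Ire1 KO cDC1 libraries, 1 panel per gene. Points are libraries (circle, square and triangle for replicates 1, 2 and 3), horizontal lines group means and vertical lines the SD. Each Xbp1-Ire1 KO point of Trib3, Ddit3, Asns and Phgdh lies above each WT point, which was a condition for the largest rises.

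Most genes that make amino acids rose. Of 19 tested genes of amino acid and one-carbon synthesis, 13 rose by 1.38 to 5.93 (log2) and 1 fell, with a median of 1.68. Asns, asparagine synthetase, lay at 9.05, 13.7 and 8.56 CPM in WT and 243, 159 and 149.97 CPM in Xbp1-Ire1 KO (log2 fold change 4.14 ± 0.25 SE, adjusted p = 7.12e-07). Phgdh, the first enzyme of serine synthesis, lay at 44.8, 43.02 and 35.1 CPM in WT and 442, 369.5 and 371 CPM in Xbp1-Ire1 KO (log2 fold change 3.27 ± 0.19 SE, adjusted p = 7.12e-07). The lowest Xbp1-Ire1 KO library was above the highest WT library for both, which was a condition for the largest rises. Pck2, mitochondrial phosphoenolpyruvate carboxykinase, lay at 22.5, 19.8 and 17.04 CPM in WT and 95.05, 93.4 and 86.96 CPM in Xbp1-Ire1 KO (log2 fold change 2.21 ± 0.15 SE, adjusted p = 1.98e-06). Mthfd2, a mitochondrial enzyme of the folate cycle, lay at 99.3, 113 and 108 CPM in WT and 372, 348 and 344 CPM in Xbp1-Ire1 KO (log2 fold change 1.73 ± 0.12 SE, adjusted p = 2.54e-06). The gene that fell was Gfpt1, the entry enzyme of the hexosamine pathway (195, 183 and 176 CPM in WT and 118, 111 and 96.9 CPM in Xbp1-Ire1 KO, log2 fold change −0.77 ± 0.12 SE, adjusted p = 0.00147).

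Of 16 tested amino acid transporters 9 rose, 1 fell and the median was 0.80. Slc1a4, a transporter of alanine, serine and cysteine, lay at 2.66, 8.77 and 5.34 CPM in WT and 75.1, 95.6 and 69.8 CPM in Xbp1-Ire1 KO (log2 fold change 3.83 ± 0.36 SE, adjusted p = 2.67e-05). Slc6a9, the glycine transporter GLYT1, lay at 3.16, 5.29 and 1.26 CPM in WT and 57.2, 51.95 and 44.3 CPM in Xbp1-Ire1 KO (log2 fold change 3.97 ± 0.34 SE, adjusted p = 1.27e-05), with 27.8% of its exon bases shared with Ccdc24. Slc7a5, the large neutral amino acid transporter LAT1, was the most abundant of these at 80.1, 98.6 and 46.6 CPM in WT and 374, 398 and 310.2 CPM in Xbp1-Ire1 KO (log2 fold change 2.26 ± 0.22 SE, adjusted p = 3.81e-05). Each Xbp1-Ire1 KO library exceeded each WT library for all 3 genes, where the groups did not overlap in 26.4% of all tested genes. For Slc1a4 and Slc6a9, which are among the largest rises, this was a condition of that rule. Slc1a5, a glutamine transporter, rose from 116, 129 and 107 CPM to 314, 316 and 278 CPM (log2 fold change 1.37 ± 0.17 SE, adjusted p = 0.000244). Slc7a6, a cationic and neutral amino acid exchanger, fell (log2 fold change −0.69 ± 0.18 SE, adjusted p = 0.0306), a call lost without WT replicate 2 (adjusted p = 0.0934) or without Xbp1-Ire1 KO replicate 1 (0.117) or 3 (0.134).

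Most enzymes that load amino acids onto tRNA rose. Of 20 cytosolic aminoacyl-tRNA synthetases 12 rose, by 0.53 to 1.91, and 0 fell, with a median of 1.05. Cars, the cysteine enzyme, lay at 37.5, 45.1 and 52.6 CPM in WT and 169, 177 and 163 CPM in Xbp1-Ire1 KO (log2 fold change 1.91 ± 0.14 SE, adjusted p = 2.58e-06). Sars, the serine enzyme, lay at 98.4, 113 and 103 CPM in WT and 372, 344 and 337 CPM in Xbp1-Ire1 KO (log2 fold change 1.74 ± 0.12 SE, adjusted p = 2.58e-06). Yars, the tyrosine enzyme, and Gars, the glycine enzyme, rose by 1.72 ± 0.14 and 1.44 ± 0.13 (log2 ± SE), with adjusted p of 7.09e-06 and 1.46e-05. Vars, the valine enzyme, did not pass (375, 374 and 256 CPM in WT and 383, 527 and 384 CPM in Xbp1-Ire1 KO, log2 fold change 0.36 ± 0.17 SE, adjusted p = 0.211). Over the 4 lists of the ISR, amino acid synthesis, transporters and tRNA charging, 48 of 74 tested genes rose and 2 fell, with a median of 1.36.

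Fewer members rose among the other factors of protein synthesis and of mitochondrial folding. Of 16 mitochondrial chaperones and proteases 3 rose, among them Hspa9, the matrix chaperone mortalin (138, 154 and 149.6 CPM in WT and 512, 426 and 409.9 CPM in Xbp1-Ire1 KO, log2 fold change 1.61 ± 0.13 SE, adjusted p = 5.73e-06), and Dnaja3, its co-chaperone (log2 fold change 0.68 ± 0.12 SE, adjusted p = 0.00411). Of 44 cytosolic ribosomal proteins 5 rose and 0 fell, with a median of 0.36, and 43 had a positive log2 fold change. Rpl4, a protein of the large subunit, lay at 738, 719 and 864 CPM in WT and 1336, 1255 and 1343 CPM in Xbp1-Ire1 KO (log2 fold change 0.76 ± 0.12 SE, adjusted p = 0.00178). The ribosomal count was set by single libraries: it was 1 without WT replicate 1, WT replicate 2, Xbp1-Ire1 KO replicate 1 or Xbp1-Ire1 KO replicate 3, 8 without WT replicate 3 and 14 without Xbp1-Ire1 KO replicate 2.

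The promoters of the risen genes were searched for TGATGNAA, the core of the composite element bound by C/EBP-ATF dimers such as ATF4 with C/EBP partners. The window was the 250 bases before the RefSeq start site, on both strands. The motif occurred in 26 of 267 higher genes with a promoter in the table (9.74%), in 11 of 419 lower genes (2.63%) and in 215 of all 8742 tested genes (2.46%). It occurred in 3.45% of all 32851 promoter windows, in 5 of 16 ISR regulators, 4 of 17 genes of amino acid synthesis and 3 of 12 tRNA synthetases. A match is a description of letters, not a binding site. Of the 215 genes with a match, 12.1% were higher and 5.1% lower.

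The windows of 4 risen genes, 1 from the ISR, 2 from amino acid synthesis and 1 tRNA synthetase, are shown 5′ to 3′ toward the start site (RefSeq, GRCm38.p6), with the motif in capitals.
Asns, chr6:7693210-7693459, minus strand: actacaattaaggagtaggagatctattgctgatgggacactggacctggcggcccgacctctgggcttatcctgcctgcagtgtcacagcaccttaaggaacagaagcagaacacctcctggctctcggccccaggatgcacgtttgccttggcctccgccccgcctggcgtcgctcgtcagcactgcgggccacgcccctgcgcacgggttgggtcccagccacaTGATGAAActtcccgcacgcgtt
Chac1, chr2:119350992-119351241, plus strand: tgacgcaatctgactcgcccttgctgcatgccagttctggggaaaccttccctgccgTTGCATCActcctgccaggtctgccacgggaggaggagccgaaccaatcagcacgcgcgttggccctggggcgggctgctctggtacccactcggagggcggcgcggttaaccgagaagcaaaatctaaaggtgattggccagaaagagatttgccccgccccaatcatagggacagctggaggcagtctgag
Gars, chr6:55037751-55038000, plus strand: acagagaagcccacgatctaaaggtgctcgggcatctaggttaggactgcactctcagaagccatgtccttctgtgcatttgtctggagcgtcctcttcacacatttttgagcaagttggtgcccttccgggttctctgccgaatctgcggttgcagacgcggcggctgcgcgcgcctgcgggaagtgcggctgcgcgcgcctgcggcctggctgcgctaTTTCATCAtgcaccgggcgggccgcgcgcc
Pck2, chr14:55540016-55540265, plus strand: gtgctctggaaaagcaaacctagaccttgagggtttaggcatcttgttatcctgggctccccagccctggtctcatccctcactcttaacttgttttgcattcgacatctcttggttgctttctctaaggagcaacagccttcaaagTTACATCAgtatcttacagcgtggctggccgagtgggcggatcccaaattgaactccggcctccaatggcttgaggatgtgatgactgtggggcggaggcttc
The match nearest to the start ended 15 bases from it in Asns, 22 in Gars, 95 in Pck2 and 185 in Chac1, so its place in the window was not fixed.

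Several ER chaperones rose. Of 25 tested ER chaperones and co-chaperones 10 rose and 1 fell, with a median of 0.28. The number that rose was 6 without Xbp1-Ire1 KO replicate 1 and 5 without Xbp1-Ire1 KO replicate 3. Hspa5, the Hsp70 chaperone BiP of the ER lumen, lay at 1439.8, 1618 and 2703 CPM in WT and 7474, 6345 and 7044 CPM in Xbp1-Ire1 KO (log2 fold change 1.86 ± 0.19 SE, adjusted p = 6.47e-05). Hsp90b1, the ER Hsp90, lay at 892, 934 and 1271 CPM in WT and 3698, 3349.97 and 3059 CPM in Xbp1-Ire1 KO (log2 fold change 1.71 ± 0.15 SE, adjusted p = 1.35e-05). Calr, the glycoprotein chaperone calreticulin, lay at 1519, 1491 and 1339 CPM in WT and 2857, 2630.4 and 2513 CPM in Xbp1-Ire1 KO (log2 fold change 0.88 ± 0.11 SE, adjusted p = 0.000273). These 3 abundant chaperones were higher in all 3 Xbp1-Ire1 KO libraries than in any WT library. The groups did not overlap in 26.4% of all tested genes. The summed CPM of the list was 16515 to 18274 against 6288 to 7829. These 3 genes make up most of those sums, so the sums do not show a rise of the other members, of which 14 did not pass. Dnajb11, an XBP1 target and BiP co-chaperone, rose (log2 fold change 0.91 ± 0.11 SE, adjusted p = 0.00032). Dnajb9, a co-chaperone named ERdj4 that is a textbook target of spliced XBP1, fell (65.9, 43.6 and 39.3 CPM in WT and 18.7, 18.8 and 22.9 CPM in Xbp1-Ire1 KO, log2 fold change −1.30 ± 0.20 SE, adjusted p = 0.00129).

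Of 22 disulfide isomerases and ER oxidases 3 rose, Pdia4, Pdia3 and Pdia6, by 1.27 ± 0.13, 1.03 ± 0.11 and 0.89 ± 0.12 (log2 ± SE). Their adjusted p were 5.03e-05, 6.11e-05 and 0.00039. These enzymes form and rearrange disulfide bonds in folding proteins. Another 2 fell, or 1 without Xbp1-Ire1 KO replicate 1 or 3, among them Txndc11 (log2 fold change −1.15 ± 0.17 SE, adjusted p = 0.000868), a disulfide isomerase of the ER. P4hb, the classical isomerase PDI, did not pass (901, 788 and 776 CPM in WT and 760.3, 743 and 763 CPM in Xbp1-Ire1 KO, log2 fold change −0.12 ± 0.11 SE, adjusted p = 0.566).

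The ER stress response element, CCAAT and CCACG with 9 bases between, is bound by ATF6 and XBP1 with NF-Y. It was found on either strand in the same window of 6 of 267 higher genes (2.25%), 0 of 419 lower genes and 16 of all 8742 (0.183%). Over all 32851 windows the share was 0.113%. It was present in 6 of 21 ER chaperones with a promoter in the table. Windows of 3 abundant chaperones are shown (RefSeq, GRCm38.p6, 5′ to 3′ toward the start), with the matched element in capitals.
Hspa5, chr2:34771840-34772089, plus strand: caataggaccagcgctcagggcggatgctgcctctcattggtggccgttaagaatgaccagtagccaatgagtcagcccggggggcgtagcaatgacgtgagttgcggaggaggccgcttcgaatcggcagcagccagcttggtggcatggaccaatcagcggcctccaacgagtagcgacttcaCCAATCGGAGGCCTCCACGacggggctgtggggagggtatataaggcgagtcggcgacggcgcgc
Hsp90b1, chr10:86705445-86705694, minus strand: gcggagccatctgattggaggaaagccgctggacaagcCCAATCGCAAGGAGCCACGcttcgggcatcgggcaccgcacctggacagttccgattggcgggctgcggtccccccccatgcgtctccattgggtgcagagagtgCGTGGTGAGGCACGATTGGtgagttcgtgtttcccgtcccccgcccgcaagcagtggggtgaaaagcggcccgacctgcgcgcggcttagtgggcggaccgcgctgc
Calr, chr8:84846932-84847181, minus strand: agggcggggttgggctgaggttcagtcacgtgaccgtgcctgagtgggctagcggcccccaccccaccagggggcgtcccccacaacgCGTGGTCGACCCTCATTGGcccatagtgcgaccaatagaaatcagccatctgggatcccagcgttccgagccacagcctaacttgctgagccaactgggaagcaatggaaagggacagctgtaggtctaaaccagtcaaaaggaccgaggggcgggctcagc
Hsp90b1 had 2 matches and the others 1. Of the 16 tested genes that held the element, 37.5% were higher and 0 were lower.

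Some genes that bring proteins into the ER and out to the Golgi fell. Of 24 genes of the translocon and signal peptidase 0 rose and 5 fell, with a median of −0.22. Ssr1, a subunit of the translocon-associated complex, lay at 388, 403 and 331 CPM in WT and 236, 212 and 223 CPM in Xbp1-Ire1 KO (log2 fold change −0.74 ± 0.12 SE, adjusted p = 0.00153). Sec61a1, the channel itself, lay at 578, 510.4 and 389 CPM in WT and 253, 297 and 257 CPM in Xbp1-Ire1 KO (log2 fold change −0.87 ± 0.14 SE, adjusted p = 0.00224), and Tram1, a protein beside the channel, also fell (−0.82 ± 0.14 SE). Of 45 genes of ER to Golgi transport 0 rose and 9 fell, with a median of −0.27. Sec24c, a cargo adaptor of COPII vesicles, lay at 217, 243 and 215 CPM in WT and 113, 140.2 and 131 CPM in Xbp1-Ire1 KO (log2 fold change −0.81 ± 0.12 SE, adjusted p = 0.0012). Copa, a COPI coat subunit, and Trappc1, a tether of ER-derived vesicles, fell (log2 fold change −0.60 ± 0.12 and −0.70 ± 0.14 SE). Against the WT library named WT alone, Sec61a1 (adjusted p = 0.0612) and Copa (0.0891) no longer passed, and 2 members of each list were lower. Leaving out single libraries moved both counts. The translocon count was 3 without WT replicate 1 or Xbp1-Ire1 KO replicate 2, and the transport count was 5 without WT replicate 1 or Xbp1-Ire1 KO replicate 1 and 19 without WT replicate 3.

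Few glycosylation genes passed, and genes of ER-associated degradation went both ways. Of 32 N-glycosylation genes 1 rose and 4 fell, where 3.04% of all tested genes were higher and 4.71% lower. Stt3a, the catalytic subunit of the oligosaccharyltransferase that acts during translocation, fell (506, 451 and 346 CPM in WT and 243, 284 and 263 CPM in Xbp1-Ire1 KO, log2 fold change −0.72 ± 0.14 SE, adjusted p = 0.00685), though not against the WT library named WT alone (adjusted p = 0.173). Its paralog Stt3b rose (log2 fold change 0.55 ± 0.14 SE, adjusted p = 0.0314), a call lost without WT replicate 1 or any single Xbp1-Ire1 KO library (adjusted p = 0.0794 to 0.0967). The number lower was 2 without WT replicate 1, WT replicate 2 or Xbp1-Ire1 KO replicate 1, and 8 without WT replicate 3. Of 27 degradation genes 3 rose and 5 fell, the latter count being 1 without WT replicate 1 or 2 or Xbp1-Ire1 KO replicate 1 or 3. Derl3, a membrane protein of the retrotranslocation channel, lay at 11.7, 14.1 and 10.1 CPM in WT and 35.4, 32.8 and 31.8 CPM in Xbp1-Ire1 KO (log2 fold change 1.47 ± 0.19 SE, adjusted p = 0.00038). Against the WT library named WT alone, 0 of the glycosylation genes and 1 of the degradation genes were lower. Sel1l, the adaptor of the HRD1 ligase, rose by 0.83 ± 0.11 (log2 ± SE). Edem2, a mannosidase that marks misfolded glycoproteins, fell (log2 fold change −0.96 ± 0.15 SE).

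Most tested IRE1 RNase substrates were higher than in Xbp1 KO, and few passed against WT. Of 8 tested substrates 1 rose against WT, with a median of −0.040, and without WT replicate 3 another 2 were lower. Against Xbp1 KO, 5 of 8 were higher, with a median of 2.33, where 12.7% of all genes passed, 7.13% higher and 5.52% lower. That total of 1437 genes was 658 and 648 without Xbp1 KO replicate 1 or 2, and 709 and 778 without Xbp1-Ire1 KO replicate 1 or 3. Itgb2, the beta 2 integrin of leukocytes, lay at 542, 389 and 317 CPM in WT and 829, 938 and 885 CPM in Xbp1-Ire1 KO, and at 33.4, 37.1 and 32.1 CPM in Xbp1 KO. It rose against both WT (log2 fold change 1.09 ± 0.17 SE, adjusted p = 0.00131) and Xbp1 KO (4.69 ± 0.19, adjusted p = 1.16e-08). Tapbp, the tapasin chaperone of MHC class I loading, lay at 1742, 1401 and 968 CPM in WT and 952, 1064 and 993 CPM in Xbp1-Ire1 KO and at 166, 173 and 117 CPM in Xbp1 KO. It differed from Xbp1 KO (2.72 ± 0.21, adjusted p = 1.98e-06) and did not pass against WT (log2 fold change −0.45 ± 0.19 SE, adjusted p = 0.181), where without WT replicate 3 it was −0.65, adjusted p = 0.00913. Tapbp shares 24.9% of its exon bases with Gm19412.

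Bloc1s1 and Hgsnat also stood lowest in Xbp1 KO. Bloc1s1, the textbook decay substrate, lay at 31.8, 25.3 and 31.9 CPM in WT and 52.1, 32.04 and 45.2 CPM in Xbp1-Ire1 KO and at 1.96, 2.98 and 2.48 CPM in Xbp1 KO (4.12 ± 0.25, adjusted p = 3.01e-07 against Xbp1 KO). Its exon bases are 55.9% shared with Rdh5 on the same strand. Hgsnat, a lysosomal acetyltransferase, lay at 35.4, 32.1 and 26.5 CPM in WT and 45.8, 44.6 and 39.1 CPM in Xbp1-Ire1 KO and at 4.48, 4.64 and 4.29 CPM in Xbp1 KO (3.27 ± 0.18, adjusted p = 1.86e-07). Neither passed against WT, with log2 fold changes of 0.54 ± 0.20 and 0.46 ± 0.16 (SE). A p that misses the threshold does not show that the levels were equal.

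**Figure D3:**
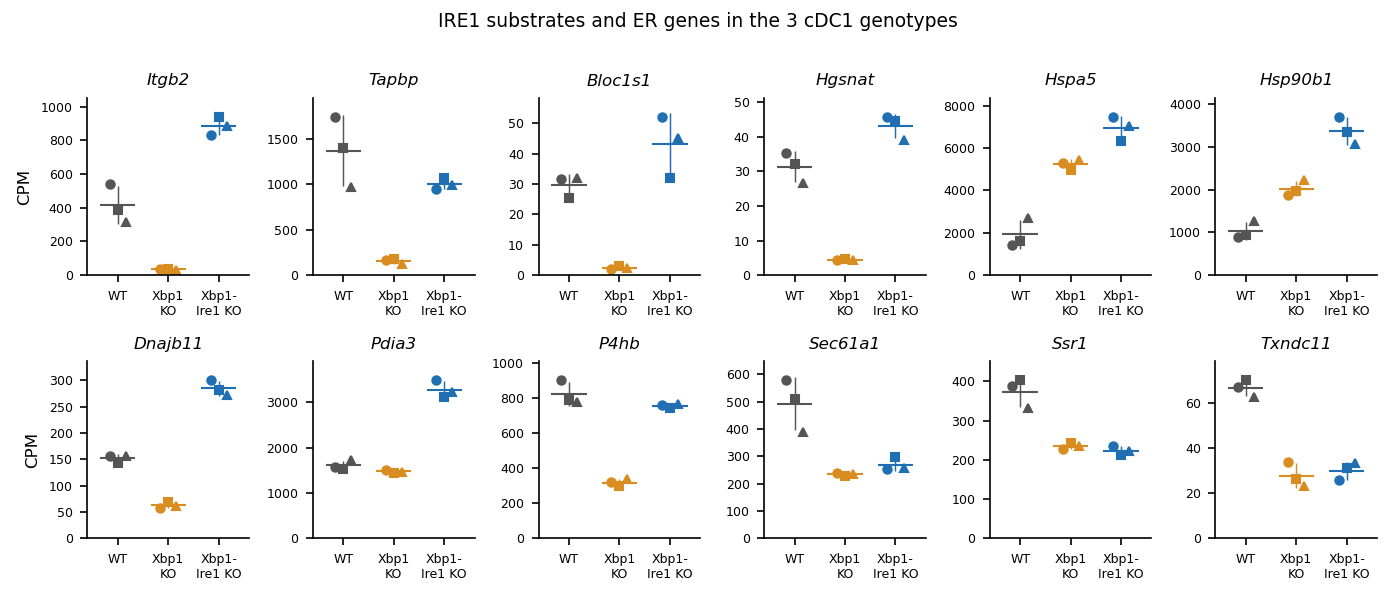
CPM (y axis, from 0) of 12 IRE1 substrate and ER genes in the 3 WT, 3 Xbp1 KO and 3 Xbp1-Ire1 KO cDC1 libraries, with points for libraries, horizontal lines for means and vertical lines for the SD. Itgb2, Tapbp, Bloc1s1 and Hgsnat are lowest in Xbp1 KO, while Hspa5 and Hsp90b1 are higher in Xbp1-Ire1 KO than in WT.

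Few cholesterol genes changed. Of 25 cholesterol synthesis genes 0 rose and 3 fell, with a median of −0.22. Against the WT library named WT alone, 2 rose and 0 fell, with a median of −0.073. Among those that fell were Hmgcs1, an enzyme of the mevalonate pathway (100.2, 81.2 and 81.7 CPM in WT and 67.97, 45.6 and 54.3 CPM in Xbp1-Ire1 KO, log2 fold change −0.65 ± 0.17 SE, adjusted p = 0.0305), and Insig1, the brake on the SREBP factor (62.8, 46.4 and 46.2 CPM in WT and 29.1, 20.7 and 38.7 CPM in Xbp1-Ire1 KO, log2 fold change −0.81 ± 0.22 SE, adjusted p = 0.0365). Both calls were lost without WT replicate 1, with adjusted p of 0.135 and 0.162, or without Xbp1-Ire1 KO replicate 2 (0.0942 and 0.0988). Without Xbp1-Ire1 KO replicate 1 the adjusted p of Insig1 was 0.125, without replicate 3 that of Hmgcs1 was 0.106, and without WT replicate 2 that of Insig1 was 0.0516. In the list 0 members were lower without WT replicate 1 or Xbp1-Ire1 KO replicate 2, and 1 was lower without Xbp1-Ire1 KO replicate 1. Against Xbp1 KO, 13 of the 25 were higher and 0 lower, with a median of 0.68. Abcg1, the cholesterol efflux pump induced by LXR, fell against WT (141, 116 and 85.8 CPM in WT and 30.8, 49.3 and 28.4 CPM in Xbp1-Ire1 KO, log2 fold change −1.66 ± 0.22 SE, adjusted p = 0.000473). Of the 23 tested genes in its list of LXR targets and cholesterol efflux, 3 fell, 1 rose and 19 did not pass. With 1 library left out, 1 to 4 of them were lower.

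The list of homeostatic maturation had the most lower members. Of 54 tested members 33 fell, by 0.48 to 3.93 on the log2 scale, 1 rose and 20 did not pass, with a median of −1.09. The count of lower members was 25 to 34 with 1 library left out. Fscn1, the actin bundler of mature dendritic cells, lay at 424, 204 and 397 CPM in WT and 35.8, 19.2 and 56.9 CPM in Xbp1-Ire1 KO (log2 fold change −3.19 ± 0.38 SE, adjusted p = 0.000198). Slco5a1, a solute carrier of mature dendritic cells, lay at 18.7, 7.56 and 25.1 CPM in WT and 0.885, 0.761 and 1.68 CPM in Xbp1-Ire1 KO (log2 fold change −3.93 ± 0.48 SE, adjusted p = 0.000262). Each Xbp1-Ire1 KO library was below each WT library for both, which was a condition of naming them. The WT libraries themselves were spread. Tmem176a and Tmem176b, paired channel proteins of antigen-presenting cells, lay at 91.8, 40.000 and 52.4 CPM in WT and 4.42, 3.69 and 6.66 CPM in Xbp1-Ire1 KO and at 86.04, 42.8 and 50.9 CPM in WT and 10.9, 6.21 and 10.03 CPM in Xbp1-Ire1 KO. They fell (log2 fold change −3.63 ± 0.32 and −2.74 ± 0.27 SE), with adjusted p of 1.35e-05 and 4.84e-05. Apol7c, an apolipoprotein L of cDC1, lay at 1060.3, 808 and 952 CPM in WT and 170.2, 129.5 and 235 CPM in Xbp1-Ire1 KO (log2 fold change −2.40 ± 0.24 SE, adjusted p = 4.84e-05).

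Regulators and receptors of maturation followed. Ccr7, which guides mature cells to lymph nodes, lay at 843, 376 and 1329.9 CPM in WT and 117, 70.9 and 182 CPM in Xbp1-Ire1 KO (log2 fold change −2.79 ± 0.41 SE, adjusted p = 0.000939). Relb, the NF-kB subunit of dendritic cell maturation, lay at 187, 134 and 172 CPM in WT and 50.001, 54.6 and 66.3 CPM in Xbp1-Ire1 KO (log2 fold change −1.53 ± 0.15 SE, adjusted p = 5e-05). Nfkbia, the NF-kB inhibitor induced by the pathway, and Traf1, a TNF receptor adaptor, fell (log2 fold change −1.24 ± 0.17 and −1.22 ± 0.18 SE), with adjusted p of 0.000673 and 0.00096. Tnfrsf4, the costimulatory receptor OX40, fell (log2 fold change −2.94 ± 0.49 SE), and its value was −3.74 without Xbp1-Ire1 KO replicate 3.

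Some members of the maturation list did not follow. Cd83 and Cd86, surface proteins of mature cells, did not pass (0.072 ± 0.42, adjusted p = 0.947 and 0.062 ± 0.14, adjusted p = 0.845). Cd83 lay at 826, 610.1 and 2724 CPM in WT and 1099, 1236 and 2037 CPM in Xbp1-Ire1 KO. Without WT replicate 3 its value was 1.02, adjusted p = 0.00707, and its sign changed without WT replicate 1 or 2 or Xbp1-Ire1 KO replicate 3, as that of Cd86 did without Xbp1-Ire1 KO replicate 1. Il6, an inflammatory cytokine, rose (1.66, 0.907 and 4.71 CPM in WT and 37.4, 20.97 and 23.9 CPM in Xbp1-Ire1 KO, log2 fold change 3.49 ± 0.52 SE, adjusted p = 0.00109), and its value was 4.41 without WT replicate 3. The summed CPM of the list was 7545 to 13545 in WT, highest in replicate 3, and 5601 to 7059 in Xbp1-Ire1 KO. The mean level of immediate early genes was also highest in WT replicate 3. Their part in the result was not tested.

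**Figure D4:**
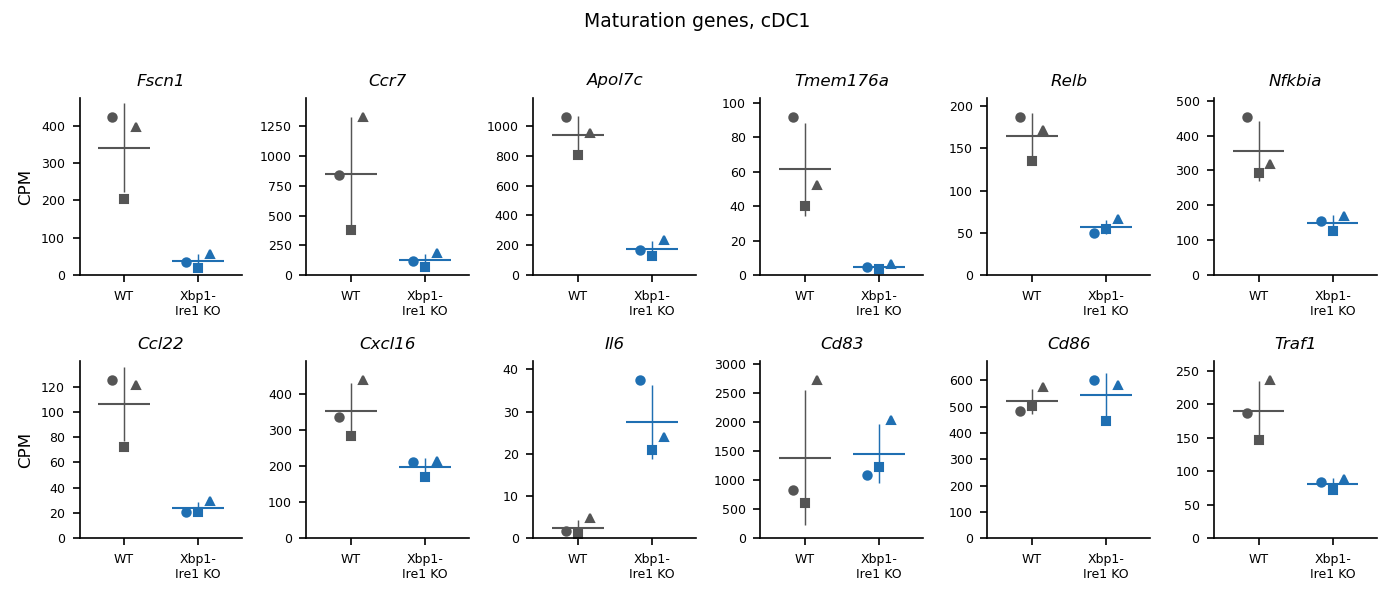
CPM (y axis, from 0) of 12 maturation genes in the 3 WT and 3 Xbp1-Ire1 KO cDC1 libraries, with points for libraries, horizontal lines for means and vertical lines for the SD. The Xbp1-Ire1 KO points of Fscn1, Ccr7, Apol7c and Relb lie below every WT point, which for Fscn1 was a condition of naming it. The groups did not overlap in 26.4% of all tested genes.

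Most chemokine and antigen presentation genes did not pass. Of 19 chemokines and receptors 0 rose and 6 fell, a count of 3 without Xbp1-Ire1 KO replicate 1 or 2, and without WT replicate 3 another 3 rose. Ccl22, a chemokine for regulatory T cells, lay at 125, 72.1 and 122 CPM in WT and 20.7, 20.8 and 29.8 CPM in Xbp1-Ire1 KO (log2 fold change −2.16 ± 0.34 SE, adjusted p = 0.00148). Cxcl16, a membrane chemokine that shares 18.3% of its exon bases with Zmynd15, lay at 336, 284 and 437 CPM in WT and 211, 169.8 and 213 CPM in Xbp1-Ire1 KO (log2 fold change −0.83 ± 0.16 SE, adjusted p = 0.00522). Ccl5, an inflammatory chemokine, fell (log2 fold change −1.98 ± 0.43 SE), a call lost without Xbp1-Ire1 KO replicate 1 (adjusted p = 0.0595) or replicate 2 (0.0517). Of 15 MHC class II genes 0 rose and 6 fell, a count of 3 without WT replicate 1 or Xbp1-Ire1 KO replicate 1 and 10 without WT replicate 3. H2-Eb2, a minor class II chain, lay at 25.5, 12.6 and 32.2 CPM in WT and 5.31, 2.69 and 3.04 CPM in Xbp1-Ire1 KO (log2 fold change −2.69 ± 0.35 SE, adjusted p = 0.000385), and Cd74, the invariant chain and the most abundant of the list, fell from 53554, 47727 and 31744 CPM to 25979, 27270.1 and 26982 CPM (log2 fold change −0.73 ± 0.16 SE). The call of Cd74 was lost without Xbp1-Ire1 KO replicate 1 (adjusted p = 0.065) or against the WT library named WT alone (0.231), where 4 of the chemokine list and 1 of the MHC class II list were lower.

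Of 23 MHC class I genes 2 rose, the chaperones Calr and Pdia3, and 4 fell. The number lower was 2 without WT replicate 1 or Xbp1-Ire1 KO replicate 1 or 2. H2-K1, a classical class I heavy chain, lay at 2174, 1767 and 1376 CPM in WT and 966, 1068 and 1052 CPM in Xbp1-Ire1 KO (log2 fold change −0.78 ± 0.15 SE, adjusted p = 0.0065), a call lost against the WT library named WT alone (adjusted p = 0.133), where 1 of the MHC class I list and 2 of the lysosomal list were lower. Of 41 lysosomal genes 0 rose and 7 fell, a count of 3 without WT replicate 1 or Xbp1-Ire1 KO replicate 1, 4 without Xbp1-Ire1 KO replicate 3 and 19 without WT replicate 3. Cd63, a tetraspanin of late endosomes, lay at 104, 48.2 and 79.1 CPM in WT and 8.23, 6.50 and 18.6 CPM in Xbp1-Ire1 KO (log2 fold change −2.79 ± 0.40 SE, adjusted p = 0.000776), and its value was −3.40 without Xbp1-Ire1 KO replicate 3. Gusb, beta-glucuronidase, lay at 1200.4, 1193 and 894 CPM in WT and 490.3, 627 and 544 CPM in Xbp1-Ire1 KO (log2 fold change −0.99 ± 0.14 SE, adjusted p = 0.000728). Gm2a, the activator protein of ganglioside breakdown, fell (log2 fold change −0.75 ± 0.13 SE), and its adjusted p was 0.0627 against the WT library named WT alone.

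Most genes of cDC1 identity did not pass. Of 30 cDC1 identity genes 1 rose, 5 fell and 24 did not pass, with a median of −0.085. Xcr1 lay at 887, 1015 and 1012 CPM in WT and 918, 952 and 897 CPM in Xbp1-Ire1 KO and Irf8, the transcription factor cDC1 depend on, at 3897, 4194 and 3817 CPM in WT and 4199, 4684 and 4183 CPM in Xbp1-Ire1 KO, with log2 fold changes of −0.075 ± 0.11 and 0.13 ± 0.11 (SE). Cd207, the lectin langerin, fell (40.1, 59.4 and 43.1 CPM in WT and 5.58, 9.37 and 10.9 CPM in Xbp1-Ire1 KO, log2 fold change −2.45 ± 0.24 SE, adjusted p = 4.22e-05). Itgae, the integrin CD103 of a cDC1 subset, lay at 146, 98.7 and 151 CPM in WT and 41.4, 65.6 and 63.6 CPM in Xbp1-Ire1 KO (log2 fold change −1.21 ± 0.21 SE, adjusted p = 0.00308). Tlr12, a toll-like receptor for profilin, fell (log2 fold change −0.99 ± 0.19 SE), and its adjusted p was 0.187 against the WT library named WT alone. Sept3, a septin of cDC1, was the member that rose (log2 fold change 0.74 ± 0.19 SE, adjusted p = 0.0323), a call lost without WT replicate 1 or 2 or Xbp1-Ire1 KO replicate 2 or 3 (adjusted p = 0.112 to 0.145). The number lower was 3 without Xbp1-Ire1 KO replicate 1 or 3.

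Of 24 cDC2 identity genes 4 fell and 1 rose. The number lower was 2 without WT replicate 1, and the number higher was 4 without WT replicate 3. Cd7, a surface protein of lymphoid and some dendritic cells, lay at 6.06, 7.71 and 5.73 CPM in WT and 0.531, 1.29 and 1.23 CPM in Xbp1-Ire1 KO (log2 fold change −2.64 ± 0.50 SE, adjusted p = 0.00517). Its adjusted p was 0.0737 against the WT library named WT alone, where 1 of the cDC2 list and 1 of the integrin list were lower. Klf4, a factor of cDC2 that is also an immediate early gene, was the riser (log2 fold change 1.99 ± 0.54 SE, adjusted p = 0.0379), a call lost without WT replicate 1 or 2 or any single Xbp1-Ire1 KO library (adjusted p = 0.0739 to 0.149), and its value was 3.12 without WT replicate 3. Of 29 integrin and adhesion genes 2 rose, among them Itgb2, and 6 fell. The number lower was 3 without WT replicate 1, WT replicate 2 or Xbp1-Ire1 KO replicate 3 and 2 without Xbp1-Ire1 KO replicate 1.

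Immediate early genes, which respond to handling as well as to signals, had 7 of 32 lower and 1 higher. Dusp2 and Klf2, a phosphatase of MAP kinases and a quiescence factor, fell (log2 fold change −1.02 ± 0.18 and −0.88 ± 0.16 SE), with adjusted p of 0.0564 and 0.0713 against the WT library named WT alone. Zfp36l1, an mRNA decay factor, fell (log2 fold change −0.87 ± 0.18 SE), with 55.9% of its exon bases antisense to Gm26669. The number lower was 3 without WT replicate 1 and 4 without Xbp1-Ire1 KO replicate 1, and the number higher was 12 without WT replicate 3. Against Xbp1 KO 16 of the 32 were lower and 0 higher.

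Cell death genes were divided. Of 29 BCL2 family and p53 target genes 4 rose and 3 fell, with 2 higher without Xbp1-Ire1 KO replicate 1 or 3. Bcl2l11, which encodes the killer protein BIM, lay at 92.1, 73.6 and 104 CPM in WT and 36.9, 32.6 and 44.9 CPM in Xbp1-Ire1 KO (log2 fold change −1.24 ± 0.18 SE, adjusted p = 0.000777), and Mcl1, a survival protein, at 1237, 938 and 914 CPM in WT and 592, 592 and 616 CPM in Xbp1-Ire1 KO (log2 fold change −0.78 ± 0.13 SE, adjusted p = 0.00229). Both fell, although the first promotes cell death and the second survival. Ccng1 and Phlda3, p53 targets, rose by 0.89 ± 0.13 and 1.86 ± 0.31 (log2 ± SE). In glycolysis 1 of 24 rose, Pfkp (0.67 ± 0.12 SE), a phosphofructokinase, and 2 fell (1 without Xbp1-Ire1 KO replicate 2 or 3), among them Pfkfb3, which makes its activator (178, 109.7 and 411 CPM in WT and 55.04, 59.7 and 69.8 CPM in Xbp1-Ire1 KO, log2 fold change −1.92 ± 0.36 SE, adjusted p = 0.00534), or −1.23 without WT replicate 3. Of 30 autophagy genes 1 rose (2 without WT replicate 1, 3 without WT replicate 3), Sqstm1, the receptor p62 (678, 521 and 719.6 CPM in WT and 1322, 1031 and 1038 CPM in Xbp1-Ire1 KO, log2 fold change 0.82 ± 0.14 SE, adjusted p = 0.00317), with 17.3% of its exon bases shared with Mrnip. Of 36 interferon-stimulated genes and 42 cell cycle genes 0 passed in the edgeR test, with medians of 0.12 and −0.027. At an unadjusted p under 0.05, 2 and 1 of them passed, and DESeq2 called 0 and 1. Without WT replicate 3, 4 interferon-stimulated genes were higher and 1 lower.

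Among the largest changes were genes outside the process lists. Cox6a2, a muscle-type subunit of respiratory complex IV that also marks plasmacytoid dendritic cells, lay at 0.332, 0.302 and 0.628 CPM in WT and 112, 70.5 and 66.3 CPM in Xbp1-Ire1 KO (log2 fold change 7.59 ± 0.40 SE, adjusted p = 4.6e-07), or 16 against 3495 counts over the groups. Summed transcripts of the 10 plasmacytoid markers, Cox6a2 among them, lay at 110 to 133 CPM in WT and 159 to 209 CPM in Xbp1-Ire1 KO. Cox6a2 makes up a large part of the Xbp1-Ire1 KO sums, so they do not show a rise of the other markers. The median log2 fold change of the 10 was −0.19. Of the 10, Cox6a2 rose, Ccr9 fell and 8 did not pass. Vegfa, the vascular growth factor, lay at 0, 0.907 and 3.30 CPM in WT and 18.9, 18.3 and 21.2 CPM in Xbp1-Ire1 KO (log2 fold change 3.78 ± 0.65 SE, adjusted p = 0.00285), and its value was 5.34 without WT replicate 3. Inpp4b, a phosphoinositide phosphatase, lay at 1.08, 2.95 and 2.75 CPM in WT and 24.96, 18.3 and 16.5 CPM in Xbp1-Ire1 KO (log2 fold change 3.13 ± 0.36 SE, adjusted p = 0.000158).

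Several of the largest falls were also outside the lists. Asprv1, an aspartic protease, lay at 66.2, 32.4 and 61.5 CPM in WT and 4.42, 1.99 and 6.60 CPM in Xbp1-Ire1 KO (log2 fold change −3.63 ± 0.38 SE, adjusted p = 7.23e-05). Nudt17, a nudix hydrolase, fell (log2 fold change −3.42 ± 0.49 SE), or −4.22 without Xbp1-Ire1 KO replicate 3. Ankrd33b, an ankyrin repeat protein, lay at 29.4, 11.7 and 26.2 CPM in WT and 2.48, 2.17 and 3.43 CPM in Xbp1-Ire1 KO (log2 fold change −3.05 ± 0.37 SE, adjusted p = 0.00021). Adora2a, an adenosine receptor, fell (log2 fold change −2.94 ± 0.43 SE), or −2.33 without WT replicate 1. Jag1, a Notch ligand, fell (log2 fold change −2.86 ± 0.42 SE), or −3.47 without Xbp1-Ire1 KO replicate 3. Arc, an immediate early gene whose protein forms capsids, lay at 37.6, 19.7 and 42.9 CPM in WT and 4.69, 4.45 and 5.24 CPM in Xbp1-Ire1 KO (log2 fold change −2.80 ± 0.36 SE, adjusted p = 0.000321).

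Fewer genes passed in cDC2 of the same genotype, and the difference between the cell types was tested as an interaction over all 19 libraries. The fit took the libraries as independent. Some cDC1 and cDC2 libraries carry the same number in their descriptions, and whether they share mice is not stated. A pairing of the cell types was not modelled. In cDC2, 3 of 11646 genes passed (0.0258%), with 877 at an unadjusted p under 0.05. They were Cox6a2 (5.27), Plcb4 (4.51) and Plcb1, the last listed at 0 counts in WT. The effect differed between the cell types in 272 of 12185 genes (2.23%), with 92 more positive in cDC1 (0.755%) and 180 more negative (1.48%). The total was 170 without Xbp1-Ire1 KO cDC1 replicate 1. The interaction passed, more positive in cDC1, for 8 of the ISR regulators, 11 of the amino acid synthesis genes, 6 of the transporters and 10 of the tRNA synthetases. In amino acid synthesis Gfpt1 alone was more negative. For Trib3 the difference of log2 fold changes (± SE) was 6.70 ± 0.84, adjusted p = 9.68e-05, for Ddit3 3.84 ± 0.48, adjusted p = 9.68e-05 and for Phgdh 3.18 ± 0.26, adjusted p = 6.41e-07. The difference for Trib3 exceeded its cDC1 log2 fold change of 5.06, so part of it comes from a negative estimate in cDC2. In cDC2, 0 of 17 tested ISR regulators passed. In the maturation list 25 members were more negative in cDC1 and 0 more positive, with a median difference of −1.24. For Fscn1 it was −3.10 ± 0.44, adjusted p = 0.000303, where cDC2 gave −0.11.

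Cox6a2 and Hspa5 did not pass this test, while Plcb4 and Hsp90b1 did. Cox6a2 rose in both, and its difference of 2.30 ± 0.70, adjusted p = 0.104 did not pass. Plcb4, a phospholipase C, rose less in cDC1 (1.36 ± 0.21 SE) than in cDC2, a difference of −3.16 ± 0.58, adjusted p = 0.00377. Hspa5 differed by 1.28 ± 0.35, adjusted p = 0.0617, which did not pass, whereas Hsp90b1 differed by 1.08 ± 0.26, adjusted p = 0.0338.

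**Figure D5:**
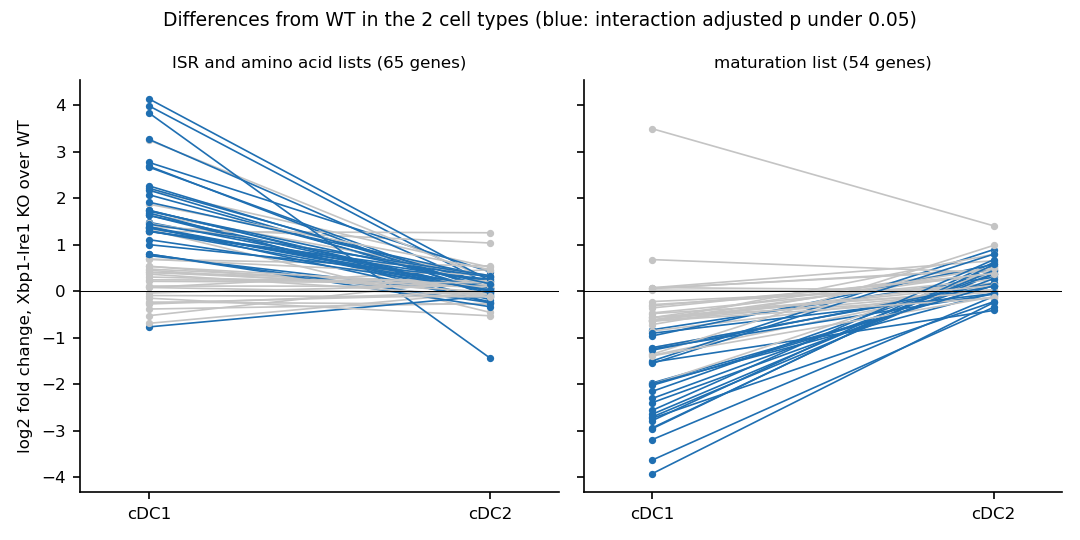
Log2 fold change of Xbp1-Ire1 KO over WT (y axis) in cDC1 and cDC2 (x axis), with 1 line per gene, blue where the interaction passed at adjusted p under 0.05. It passed for 33 of the 65 ISR and amino acid genes drawn (Gdf15, at 0 in WT, and genes not tested in cDC2 are left out) and for 25 of the 54 maturation genes, and in both panels the cDC2 ends lie closer to 0 for most of them.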

How the data were processed

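The authors deposited raw counts per gene symbol (24421 symbols), and these counts were tested. The deposited log2 values of the authors, per the file headers one column per library, served only as an alternative, and the cDC2 normalized table was not used. Per the submitters' processing notes, reads went through FastQC 0.11.4, Trimmomatic 0.35, TopHat2 2.1.0, SAMtools 0.1.19 and limma 3.42.2 on mm10. For the counting program, its annotation and its use of strand the entry is: not given in the sources used here.

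The 9 cDC1 libraries were fitted together with edgeR 4.0.16 in R 4.3.3. Genes passed filterByExpr (minimum count 10, minimum total 15), libraries were scaled by TMM, and genes were called by the quasi-likelihood F test at a Benjamini-Hochberg adjusted p under 0.05, adjusted over the whole table. Standard errors were approximated as the size of the log2 fold change over root F. The interaction used all 19 libraries. Sort markers and the summed CPM of lists, unlike the other CPM values, are unscaled. Total counts in units of 1e6 were 11.3 to 16.2, which limits precision for low genes.

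The members and the 32 process and 10 other-cell lists were chosen with earlier results of these data known. Of 930 list symbols 926 were in the table. Genes were named by a rule. It took Ern1 and Xbp1, and the 10 largest rises and 10 largest falls among eligible genes. Eligible genes were called, had groups that did not overlap and passed an abundance floor (3 in log2 CPM). Larger changes of genes outside these limits, such as that of Gdf15, were not ranked. From each list the rule took up to 4 called members with the smallest adjusted p and the 2 most abundant uncalled members. Plcb1, Plcb4, Slc7a6, Sept3, Klf4, Stt3b, Atf4, Gdf15, Gfpt1, Dnajb9, Bloc1s1, Hgsnat, Nfkbia and Traf1 were chosen after their values were seen. Only part of the genes that the rule names are given, and a few results are not reported here. Coordinates are GENCODE M21, in which 10940 of the 11353 tested symbols matched, and promoters are RefSeq. In simulated counts 57% of 2-fold and 83% of 4-fold changes were recovered (11017 genes). Alternatives were DESeq2 1.42.0, limma 3.58.1 (voom, and on the deposited log2 values), other scalings and filters, a replicate block, the 6 libraries alone, WT libraries by name and each library left out. Figures used matplotlib 3.10.9.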

Additional observations from a re-analysis of the deposited data

Results flagged for a closer look

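The effect of Xbp1-Ire1 KO against WT differed between cDC1 and cDC2 for 62 of the 108 printed genes in the interaction fit (edgeR quasi-likelihood test, adjusted p under 0.05), where 2.23% of all genes passed. The values are differences of log2 fold changes, cDC1 minus cDC2. They can exceed the cDC1 change where the cDC2 estimate has the other sign, as for Trib3 (5.06 in cDC1) and Slc1a4 (3.83 in cDC1). That of Gdf15, at 0 counts in cDC1 WT, is not a measured size. The genes were not drawn at random, since most were named for their change in cDC1.

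In the ISR, amino acid supply and tRNA charging the effect was more positive in cDC1 for Trib3 (6.7), Ddit3 (3.84), Cebpb (2.34), Eif4ebp1 (2.16), Chac1 (2.8), Gdf15 (8.4), Asns (3.93), Phgdh (3.18), Pck2 (2.04), Mthfd2 (1.71), Slc1a4 (5.26), Slc7a5 (2.18), Slc1a5 (1.34), Cars (1.59), Sars (1.76), Yars (1.54) and Gars (1.08), and more negative for Gfpt1 (−0.69). Among folding factors, sensors and mitochondrial chaperones it was more positive for Ern1 (1.35), Xbp1 (1.54), Hsp90b1 (1.08), Dnajb11 (0.7), Pdia4 (1.01), Pdia3 (0.71), Pdia6 (0.76), Sel1l (0.87) and Hspa9 (1.4) and more negative for Dnajb9 (−1.14), Txndc11 (−0.97), Ssr1 (−0.61) and Edem2 (−0.75).

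In maturation and chemokines it was more negative for Fscn1 (−3.1), Tmem176a (−3.31), Tmem176b (−2.53), Apol7c (−2.69), Relb (−1.13), Slco5a1 (−3.7), Tnfrsf4 (−3.51), Ccr7 (−3.42), Ccl22 (−2.61), Cxcl16 (−1.15), Ccl5 (−2.12), Nfkbia (−1.2) and Traf1 (−1.34). Elsewhere it was more positive for Itgb2 (0.78), Inpp4b (3.05) and Ccng1 (0.69) and more negative for Abcg1 (−1.23), Asprv1 (−3.58), Nudt17 (−3.98), Ankrd33b (−3.04), Adora2a (−2.78), Jag1 (−2.36), Arc (−3.17), H2-Eb2 (−2.48), Cd7 (−2.5), Cd63 (−3.17), Gusb (−1.06), Pfkfb3 (−2.17), Bcl2l11 (−1.34), Mcl1 (−0.8) and Plcb4 (−3.16).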

How the results depend on the processing

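The count of 880 genes became 1371 with DESeq2 (594 higher, 777 lower), 575 in the 6 libraries alone (234 and 341), 1966 with only the WT libraries named after floxed alleles (890 and 1076) and 580 with only the WT library named WT (253 and 327). With 1 library left out it ranged from 430 to 1966, with 172 to 890 higher and 257 to 1076 lower. Of the 880 calls, 418 (47.5%) were kept without Xbp1-Ire1 KO replicate 1 and 452 (51.4%) without replicate 3 of that group. Another fit, without WT replicate 1, kept 448 (50.9%), and that without WT replicate 3 kept 844 (95.9%). It was 938 with limma-voom, 901 on the deposited log2 values, 874 and 879 with other scalings, 1056 without a filter and 868 with a stricter one. Against Xbp1 KO the count of 1437 ranged from 648 (without Xbp1 KO replicate 2) to 1297 with 1 library left out and was 1977 with DESeq2. The interaction count of 272 was 466 with DESeq2 and 170 (without cDC1 Xbp1-Ire1 KO replicate 1) to 298 with 1 library left out. A lone WT library was assumed to vary like the other groups.

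Libraries of WT and Xbp1-Ire1 KO with the same replicate number in their titles had weakly correlated deviations (0.009, 0.133 and 0.052). Not every library correlated best with its own number, though some did. With 3 libraries a group these values cannot settle whether libraries were paired. With a replicate block the counts were 847, 1376 and 245.

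Of 98 printed genes past the threshold, 79 stayed past it under every alternative that gave a value. Another 19 were lost under at least 1, and 0 changed sign. Most of the 98 were named for a small adjusted p or a large change, so their share does not stand for all called genes. With 1 library left out, the share of all called genes kept was 47.5% (Xbp1-Ire1 KO replicate 1) to 95.9% (WT replicate 3). Of 10 printed genes not past the threshold, 4 passed under at least 1 alternative. Signs changed for Tapbp (0.056 with only the WT library named WT), for Cd83 (−0.90 with that library, −0.20 without WT replicate 1, −0.29 without WT replicate 2, −0.26 without Xbp1-Ire1 KO replicate 3, and up to 1.02 with other libraries left out) and for Cd86 (−0.078 with that library, −0.016 without Xbp1-Ire1 KO replicate 1 and up to 0.18 without others). The causes were not tested. In simulated counts of this design 57% of 2-fold changes were recovered, so depth and 3 libraries a group limit what a missing call shows.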
